A study of Homo sapiens with 6 samples.

Results

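Keratins are the intermediate filament proteins of epithelial cells. A type I chain pairs with a type II chain, and the pairs assemble into filaments that are anchored at desmosomes and hemidesmosomes. In the breast, KRT8, KRT18, KRT19 and KRT7 are used as markers of luminal or simple epithelium, and KRT5, KRT14 and KRT17 as markers of the basal and myoepithelial layer. KRT81 and KRT86 belong to the hair keratins, and KRT80 is a further type II keratin of epithelial cells. The 10 genes described here were chosen by name from the 58735 genes of the count table. KRT14, KRT17, KRT18 and KRT19 are of type I and the other 6 are of type II.

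All libraries came from BT549, a mesenchymal cell line of basal-like breast cancer, so the data describe this line alone. RNA-Seq was performed on 3 libraries of DMSO-treated cells and 3 libraries of cells treated with AS1842856, a small molecule that binds FOXO1, each for 48 h. The comparison asks which genes differ when binding of FOXO1 to DNA is blocked. The labels give a dose of 200 nM, whereas the text of the paper gives a higher one, and the dose used was not settled here. The replicates carry the letters A, B and C, and the paper calls them biological replicates.

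The libraries held between 15289500 and 22981832 counts. Of 14338 genes compared by the quasi-likelihood test of edgeR, 56.0% were called (adjusted p under 0.05), with 27.6% higher and 28.4% lower in AS1842856. A call alone is therefore common in this comparison. The levels of markers were checked against the label of a mesenchymal, basal-like line. VIM had a mean deposited FPKM (counts divided by gene length and library size) of 254.6 in DMSO, whereas CDH1 had 1 count and ESR1 no count in the DMSO libraries together. EPCAM, a surface protein of luminal cells, had 5, 2 and 8 counts in DMSO and 1, 0 and 0 with AS1842856. Of 6 markers of blood or endothelial cells, PTPRC was the one with enough counts to be tested, with 26, 24 and 13 counts in DMSO and 44, 74 and 64 with AS1842856, and it rose by 1.48 on the log2 scale (adjusted p = 4.99e-07). CD3E and CDH5 were at 0 in every library, PECAM1, VWF and CD68 did not exceed 3 counts, and the summed counts of the 6 markers were 16 to 26 in DMSO and 48 to 78 with AS1842856. Whether the rise of PTPRC had a part in the keratin results was not tested. In such bulk RNA, fewer cells with a transcript and less of it per cell cannot be told apart.

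KRT8 and KRT18, the usual pair of simple epithelia, fell with AS1842856, to levels 9.91-fold and 9.82-fold lower, whereas KRT81 and KRT19 rose. With the counts of their pseudogenes added, the levels of KRT8 and KRT18 were 3.30-fold and 8.35-fold lower. KRT7, the keratin with the highest level in DMSO, also fell. Each gene's level in a library is written in CPM, its counts over the TMM-scaled library size. Low counts removed KRT5 and KRT14 before testing, and 7 of the remaining 8 genes were called, 3 higher and 4 lower. KRT17, one of the 3, passed the filter through its AS1842856 libraries alone and so had to be higher there, which leaves 6 called genes of 7, 2 of them higher. Without KRT17, 5 of the 7 were called and had a log2 fold change of 1 or more in size, which held for 10.6% of all genes tested. In 6 of these 7 the libraries of the groups did not overlap, against 59.9% of all genes tested. The middle 90% of all genes tested had log2 fold changes between -1.14 and 0.91.

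**Figure D1:**
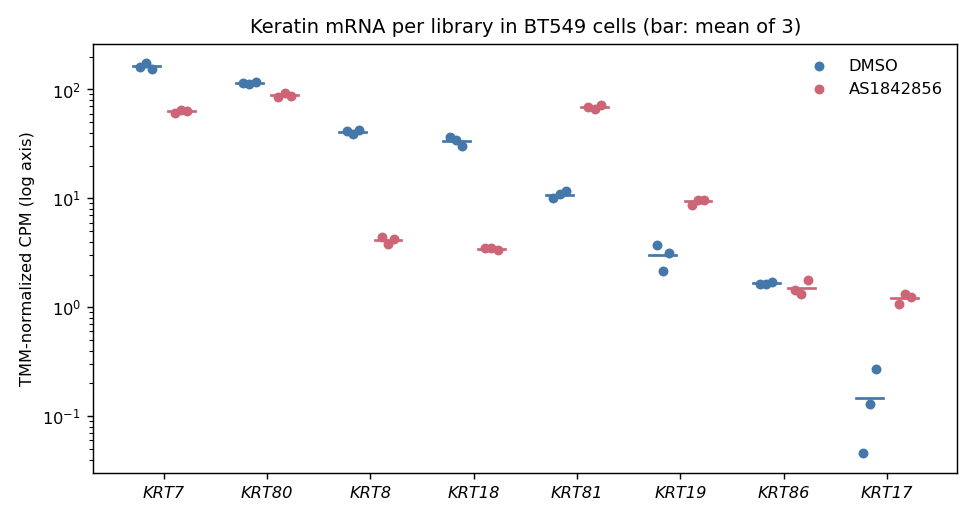
TMM-normalized CPM (log axis) of the 8 keratin genes tested, with 1 point per library and a bar at the mean of the 3 libraries of each group. KRT8 and KRT18 lie near 40.9 and 33.9 CPM in DMSO and near 4.15 and 3.45 CPM with AS1842856, and KRT81 moves the other way, from 10.9 to 69.7 CPM.

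**Figure D2:**
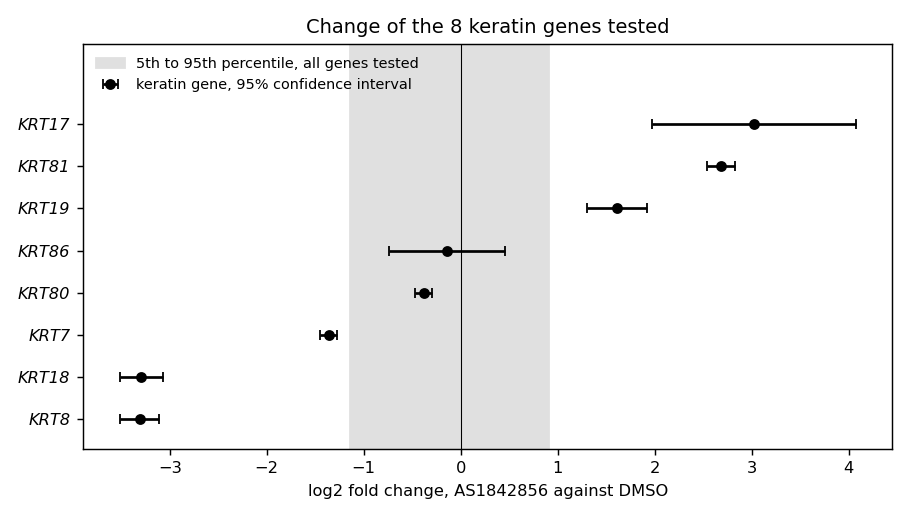
Log2 fold change of the same 8 genes with its 95% confidence interval from edgeR, beside a grey band from the 5th to the 95th percentile of all genes tested (-1.14 to 0.91). The points of KRT86 and KRT80 lie inside the band and those of the other 6 genes outside it.

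KRT8 is the type II chain of simple epithelium (ENSG00000170421, chromosome 12 from 52897187 to 52949954, minus strand, GRCh38). It had 41.8, 38.8 and 42.0 CPM in the DMSO libraries A, B and C and 4.38, 3.81 and 4.26 CPM with AS1842856. Every AS1842856 library lay well below every DMSO library. The group means were 40.9 ± 1.79 and 4.15 ± 0.301 CPM (SD, n = 3), and the log2 fold change was -3.31 (SE 0.10, adjusted p = 2.14e-88), a level 9.91-fold lower. Its partner KRT18, the type I chain (ENSG00000111057, chromosome 12 from 52948871 to 52952901, plus strand), had 36.9, 34.7 and 30.1 CPM in DMSO and 3.48, 3.50 and 3.36 CPM with AS1842856. KRT18 is the only type I gene of these 10 that lies on chromosome 12, next to KRT8. Its log2 fold change was -3.30 (SE 0.11, adjusted p = 2.31e-80), a level 9.82-fold lower.

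The ratio of KRT18 to KRT8, in deposited FPKM, was 1.89, 1.91 and 1.53 in DMSO and 1.70, 1.97 and 1.69 with AS1842856. The ranges overlapped, and the mean log2 ratio differed by 0.0081 (exact two-sided permutation test, p = 1.0). The difference between single libraries of the groups ran from -0.18 to 0.36 on the log2 scale, so the 2 chains fell by amounts that could not be told apart within that range. With 3 libraries against 3 this test cannot give a p below 0.10.

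Both genes have many processed pseudogenes, and reads from a gene and its copies can be placed on either. The 50 annotated KRT8 pseudogenes together held 222, 156 and 194 counts in DMSO, beside 917, 596 and 781 counts on KRT8. With AS1842856 they held 156, 284 and 216 counts, and KRT8 itself 73, 87 and 76. KRT8 thus held most of these counts in DMSO and the pseudogenes held most with AS1842856. KRT8P12 on chromosome 3 carried 758 of the pseudogene counts over the 6 libraries and had a log2 fold change of -0.02 (adjusted p = 0.914), and 4 of the 7190 stretches of 50 bases in KRT8 transcripts also occur in its transcripts. A KRT8 transcript of 1882 bases and a KRT8P12 transcript of 1397 bases were aligned over 1693 positions. Of these, 1258 (74.3%) were identical, with gaps counted as differences. Much of the difference is therefore gaps, and the share is not the identity of the bases that were paired. With the pseudogene counts added, the log2 fold change of KRT8 was -1.72 (adjusted p = 3.83e-62), a level 3.30-fold lower. The 67 KRT18 pseudogenes held 8 to 17 counts per library, and with them added the log2 fold change of KRT18 was -3.06. With pseudogene counts added to both genes, the ratio of KRT18 to KRT8 counts was 0.727, 0.731 and 0.583 in DMSO and 0.297, 0.253 and 0.260 with AS1842856 (exact permutation test, p = 0.10).

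**Figure D3:**
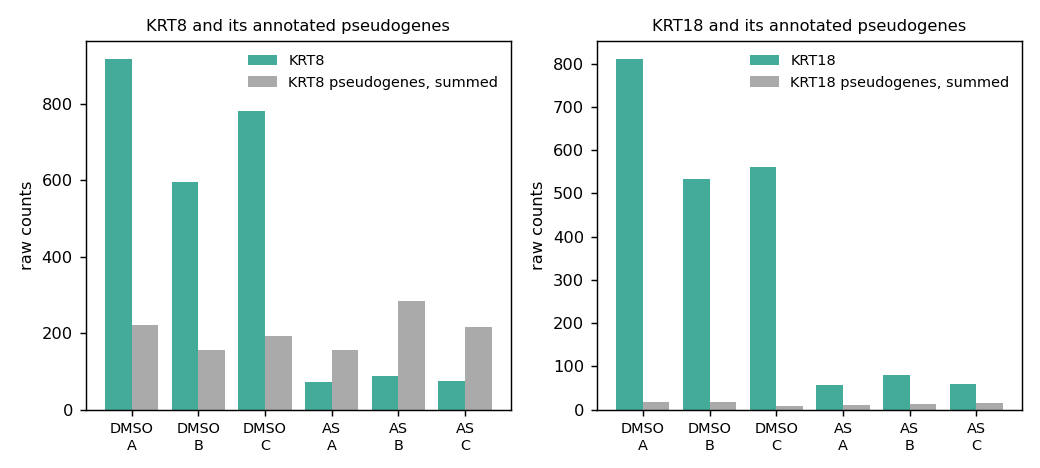
Raw counts of KRT8 (left) and KRT18 (right) in each library, beside the summed counts of their annotated pseudogenes, with AS standing for AS1842856. KRT8 falls from 917, 596 and 781 to 73, 87 and 76 counts while its pseudogenes stay between 156 and 284, and the KRT18 pseudogenes stay at 8 to 17 counts.

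The gene models of KRT8 and KRT18 overlap by 525 exonic bases on opposite strands, which is 16.3% of the exonic bases of KRT18. How strand was used in counting is not given in the sources used here, so reads in that stretch cannot be assigned to one of them. Among the 13024 genes with a mean of at least 1 CPM, the genes whose 6 library values lay nearest to those of KRT8 (log2 CPM less its DMSO mean) were FLRT1, KRT18 and EPHA4. Their root mean square differences from KRT8 were 0.117, 0.125 and 0.133. The nearest to KRT18 were PLAC8, EPHA4 and CAVIN2, at 0.081, 0.082 and 0.096, and KRT8 ranked 5.

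A RefSeq promoter window was found for KRT5 and KRT8 among the 10 genes. The 250 bases before the KRT8 start on the minus strand, chr12:52926470-52926719 in GRCh38.p14, are shown because KRT8 is one of the pair with the largest falls. This start is one of several annotated for KRT8, and counts per gene do not tell starts apart.
KRT8: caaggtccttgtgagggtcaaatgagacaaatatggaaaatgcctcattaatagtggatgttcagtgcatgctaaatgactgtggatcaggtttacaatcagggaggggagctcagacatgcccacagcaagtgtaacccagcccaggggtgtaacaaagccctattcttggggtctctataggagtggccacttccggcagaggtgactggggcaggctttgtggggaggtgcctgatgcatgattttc
The window and the 50 bases after the start were searched on both strands for the TATA box, written TATAAA, the SP1 motif GGGCGG, the AP-1 motif TGAGTCA, the FOXO motif GTAAACA, the TCF/LEF motif ATCAAAG and the AP-2 motif GCCNNNGGC. None of the 6 was found in the window of KRT8 or of KRT5, so no base is in capitals. Of the 35116 promoter windows of the same length, 11.5% held the TATA box, 45.0% the SP1 motif, 4.95% the AP-1 motif, 3.42% the FOXO motif, 2.62% the TCF/LEF motif and 23.2% the AP-2 motif.

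KRT7, a type II keratin of glandular and simple epithelium (ENSG00000135480, chromosome 12 from 52232520 to 52252186, plus strand), had 161.2, 173.3 and 155.1 CPM in DMSO and 60.5, 65.4 and 64.0 CPM with AS1842856. The libraries of the groups did not overlap. The log2 fold change was -1.36 (SE 0.05, adjusted p = 6.20e-83), so KRT7 fell less far than KRT8 and KRT18, whose 95% intervals (-3.51 to -3.11 and -3.52 to -3.07) lie wholly below its own (-1.45 to -1.27). The antisense gene KRT7-AS shares 282 exonic bases with KRT7. It held 49, 34 and 23 counts in DMSO and 6, 9 and 6 with AS1842856, and a part of these counts could come from KRT7 where strand was not used.

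KRT19, a type I keratin of luminal cells with almost no tail domain (ENSG00000171345, chromosome 17 from 41523617 to 41528308, minus strand), went against the other luminal keratins. It had 3.73, 2.15 and 3.12 CPM in DMSO and 8.76, 9.72 and 9.70 CPM with AS1842856. All 3 AS1842856 libraries were above all 3 DMSO libraries. The log2 fold change was 1.61 (SE 0.16, adjusted p = 1.03e-19), a level 3.06-fold higher. Its 5 annotated pseudogenes held no counts.

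KRT81 (ENSG00000205426, chromosome 12 from 52285913 to 52291534, minus strand) and KRT86 (ENSG00000170442, chromosome 12 from 52249300 to 52309163, plus strand) are type II hair keratins with similar coding sequences. KRT81 had 10.1, 10.9 and 11.6 CPM in DMSO and 69.6, 66.8 and 72.6 CPM with AS1842856. The groups lay far apart, with a log2 fold change of 2.68 (SE 0.07, adjusted p = 1.43e-99) and a level 6.43-fold higher. KRT81 lies inside the span of KRT86 on the other strand, with no exonic overlap. KRT86 had 1.64, 1.63 and 1.72 CPM in DMSO and 1.44, 1.31 and 1.79 CPM with AS1842856. The libraries of KRT86 overlapped, and its log2 fold change of -0.14 (95% interval -0.74 to 0.45, adjusted p = 0.714) was not called, and the interval allows a change in either direction.

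The coding sequences of KRT81 and KRT86 share 90.1% of 1522 aligned positions, gaps counted as differences, in the GENCODE transcripts compared. Of all stretches of 50 bases in KRT81 transcripts, 37.6% also occur in KRT86 transcripts, so a part of the reads of either gene could be placed on both or left out. KRT83 and KRT85, close relatives of these genes, held at most 2 counts in any library. With the counts of KRT81, KRT83, KRT85 and KRT86 summed, the log2 fold change was 2.50 (adjusted p = 1.57e-96).

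KRT80 (ENSG00000167767, chromosome 12 from 52168996 to 52192000, minus strand) had 114.4, 112.9 and 118.4 CPM in DMSO and 85.5, 91.9 and 87.8 CPM with AS1842856. The change was the smallest among the called keratins, and the groups still did not overlap. The log2 fold change was -0.38 (SE 0.04, adjusted p = 1.47e-14), a level 1.30-fold lower.

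KRT5 and KRT14 were near or below the limit of detection in both groups, and KRT17 was near it in DMSO. KRT5 (ENSG00000186081, chromosome 12 from 52514575 to 52520687) had no counts in DMSO and 0, 1 and 1 counts with AS1842856. KRT14 (ENSG00000186847, chromosome 17 from 41582279 to 41586921), its usual partner, had 1, 0 and 0 counts in DMSO and none with AS1842856. Both were removed by the filter on low counts. A count of 0 in a library allows up to 3 counts, which is between 0.131 and 0.196 CPM over the 6 libraries, so lower levels were not detectable at this depth. These limits cover counting error only.

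KRT17 (ENSG00000128422, chromosome 17 from 41619441 to 41624842, minus strand), a basal keratin that is also induced in stressed epithelium, had 1, 2 and 5 counts in DMSO and 18, 30 and 22 with AS1842856. In CPM these were 0.046, 0.130 and 0.269 in DMSO and 1.08, 1.31 and 1.23 with AS1842856. Every AS1842856 library was above every DMSO library. Since the AS1842856 libraries alone carried KRT17 past the filter, its log2 fold change of 3.02 (SE 0.53), or 3.80 without DMSO replicate C, is given as a description with no test. Its 8 annotated pseudogenes held 4 counts in AS1842856 replicate A and none in the other libraries. The ratio of summed counts, corrected for library size, was 8.51, with an exact 95% interval of 4.09 to 20.5 that covers counting error only. The interval pools the libraries of each group and is likewise a description and no test of a rise.

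Levels of different genes were compared on the deposited FPKM, which divide by gene length. In DMSO the order was KRT7 at 39.6 ± 2.20 FPKM, KRT80 at 26.3 ± 0.671, KRT18 at 10.5 ± 1.07, KRT8 at 5.90 ± 0.267, KRT81 at 5.59 ± 0.374, KRT19 at 1.28 ± 0.342, KRT86 at 0.690 ± 0.0218 and KRT17 at 0.0471 ± 0.0359 (SD, n = 3). KRT8 and KRT81 overlapped in range, and each of the other steps down to KRT17 was free of overlap. KRT5 was listed at 0 in DMSO, and no FPKM of KRT14 was used here. With AS1842856, KRT81 was first at 35.9 ± 1.48 FPKM, before KRT80 at 20.2 ± 0.737, KRT7 at 15.4 ± 0.602 and KRT19 at 3.73 to 4.14. KRT18 followed at 1.07 ± 0.0240, and KRT86 at 0.629 ± 0.103 and KRT8 at 0.600 ± 0.0436 overlapped in range.

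The deposited FPKM of KRT8 rests on 6881 exonic bases, whereas its longest principal transcript has 2126. For KRT7 the lengths are 4093 and 1754 bases. With principal transcript lengths the order in DMSO was the same, but KRT18 at 21.7 ± 2.19 and KRT8 at 19.2 ± 0.776 FPKM then overlapped. With AS1842856 and those lengths, KRT81 at 36.0 ± 1.57 and KRT7 at 36.0 ± 1.30 FPKM overlapped for the first place.

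The summed deposited FPKM of the 10 keratins was 90.3, 91.3 and 88.2 in DMSO and 76.5, 78.0 and 79.8 with AS1842856. The sum was lower in every AS1842856 library than in any DMSO library. KRT7 made up 42.7% to 46.0% of the sum in DMSO and 19.2% to 20.3% with AS1842856. KRT81 went from 5.77% to 6.76% in DMSO to 44.1% to 46.9% with AS1842856. KRT8 made up 6.13% to 6.88% in DMSO and at most 0.827% with AS1842856, and KRT18 10.6% to 12.6% and at most 1.41%. Type I chains made up 12.2% to 14.4% of the sum in DMSO and 6.73% to 7.22% with AS1842856. With principal transcript lengths the sum was 172.8, 177.3 and 167.4 in DMSO and 104.8, 107.5 and 109.3 with AS1842856, a larger difference. KRT7 then made up 52.8% to 56.0% in DMSO and 33.0% to 34.5% with AS1842856, and KRT81 3.02% to 3.58% and 32.0% to 34.5%. With those lengths KRT7 had a larger share than KRT81 in AS1842856 replicate B. KRT8 then made up 10.3% to 11.8% in DMSO and 1.66% to 1.97% with AS1842856.

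**Figure D4:**
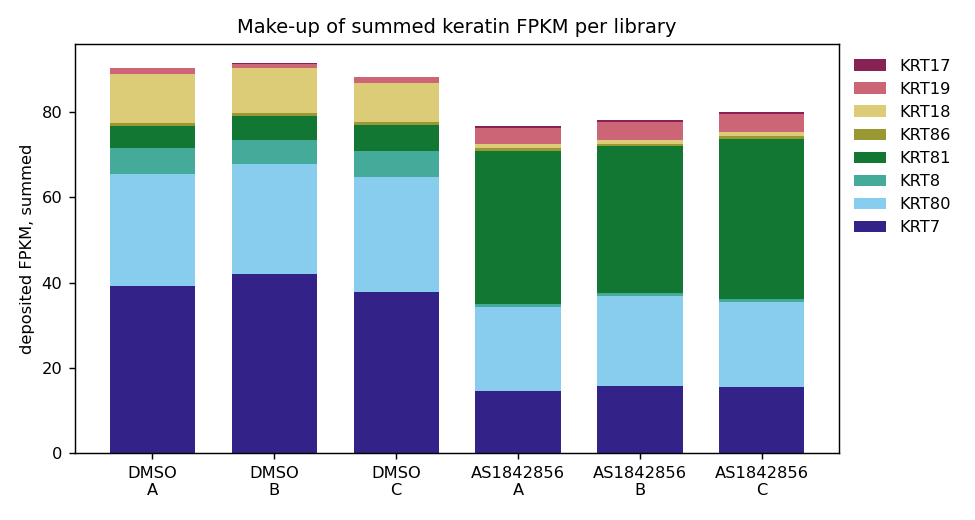
Summed deposited FPKM of the keratin genes in each library, stacked by gene (KRT5 and KRT14 are too low to be seen). The sum goes from 88.2 to 91.3 in DMSO to 76.5 to 79.8 with AS1842856, and KRT81 is the widest segment in all 3 AS1842856 libraries, though with principal transcript lengths it is not in replicate B.

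Of the 45 other protein-coding keratin genes, 30 had no count in any library and KRT10 and KRT15 were tested. Neither was called, with log2 fold changes of -0.03 for KRT10 (adjusted p = 0.763) and 0.33 for KRT15 (adjusted p = 0.511). KRT10, a type I keratin of the differentiating epidermis, had 905, 535 and 650 counts in DMSO and 691, 768 and 622 with AS1842856. Its mean of 17.2 deposited FPKM in DMSO was above that of KRT18, the highest type I member, at 10.5. With its principal transcript length KRT18 had 21.7 FPKM in DMSO, and KRT10 was not computed with that length, so the order depends on length. The type I hair keratins KRT32 and KRT31, singled out after their values were seen, had no counts in DMSO. KRT32 had 3, 18 and 13 counts with AS1842856 and KRT31 had 9, 0 and 3. The 10 members held 89.7% to 91.3% of all keratin counts in DMSO and 84.4% to 87.3% with AS1842856.

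The genes that anchor keratin filaments were read beside the keratins, from lists in which LAMB3, ITGA6, ITGB4, TP63, ELF3 and DSG1 stand more than once. Called genes went in both directions. Of 9 desmosome genes tested, 3 rose and 4 fell, with a median log2 fold change of -0.06 beside 0.0030 for all genes tested, of which 56.0% were called. The desmosomal cadherins DSC2 and DSG2 rose by 1.60 and 0.44 on the log2 scale, and the plakophilins PKP2 and PKP3 had log2 fold changes of -1.26 and -0.86. Of 10 hemidesmosome and plakin genes tested, 2 rose and 5 fell (median -0.34). The laminin gene LAMA3 had a log2 fold change of -1.77, and the plakins DST and MACF1 rose by 0.69 and 0.35.

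Of 7 other intermediate filament genes tested, 1 rose and 4 fell (median -0.34), beside 27.6% called higher and 28.4% lower among all genes tested. INA, a neuronal filament gene, rose by 2.37 on the log2 scale, from 2.98 to 15.5 CPM. SYNM (-0.85), the lamin gene LMNB2 (-0.62) and VIM (-0.34) were among those that fell. VIM had 1322 CPM in DMSO and 1046 CPM with AS1842856, far above any keratin in CPM in both groups.

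The lineage markers were read in the same fit, in which 27.6% of all genes tested were called higher and 28.4% lower. The median log2 fold change of all genes tested was 0.0030. Of 18 luminal genes, 5 were tested, 1 rose and 3 fell (median -1.11). The 3 and the median include CLDN7, which is named here after its values were seen. CLDN7 had 26, 28 and 16 counts in DMSO and 7, 11 and 8 with AS1842856. It passed the filter on low counts through its DMSO libraries alone, so it had to be lower and no test of it is given. GATA3, a luminal transcription factor, rose by 0.28, and MUC1 and FOXA1 had log2 fold changes of -1.16 and -1.11. FOXA1 was near the filter on low counts with AS1842856, at 17, 10 and 10 counts, and library B did not reach it. Of 15 basal or myoepithelial genes tested, 1 rose and 10 fell (median -0.68). The 10 include TP63, which passed the filter on low counts through its DMSO libraries alone. FOXC1 rose by 0.38, and the oxytocin receptor gene OXTR and the myosin kinase gene MYLK had log2 fold changes of -3.56 and -1.46.

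Of 6 epithelial transcription and splicing factor genes tested, 2 rose and 4 fell (median -1.01). Of all genes tested, 27.6% were called higher and 28.4% lower. GRHL3 and TFAP2A rose by 1.45 and 0.27, and TFAP2C and KLF4 had log2 fold changes of -1.98 and -1.29. TP63, a regulator of basal keratins that is one of these 4 and is named here after its values were seen, had 28, 21 and 15 counts in DMSO and 4, 7 and 3 with AS1842856. Its DMSO libraries alone carried TP63 past the filter on low counts, so it had to be lower and no test of it is given. The 4 genes that fell and the median of -1.01 include TP63. Without TP63 the middle value of the list is that of KLF5, -0.72. Of 16 keratinocyte differentiation genes, 11 had no counts, 2 were tested, and FLG had a log2 fold change of -0.64 (adjusted p = 0.00315).

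**Figure D5:**
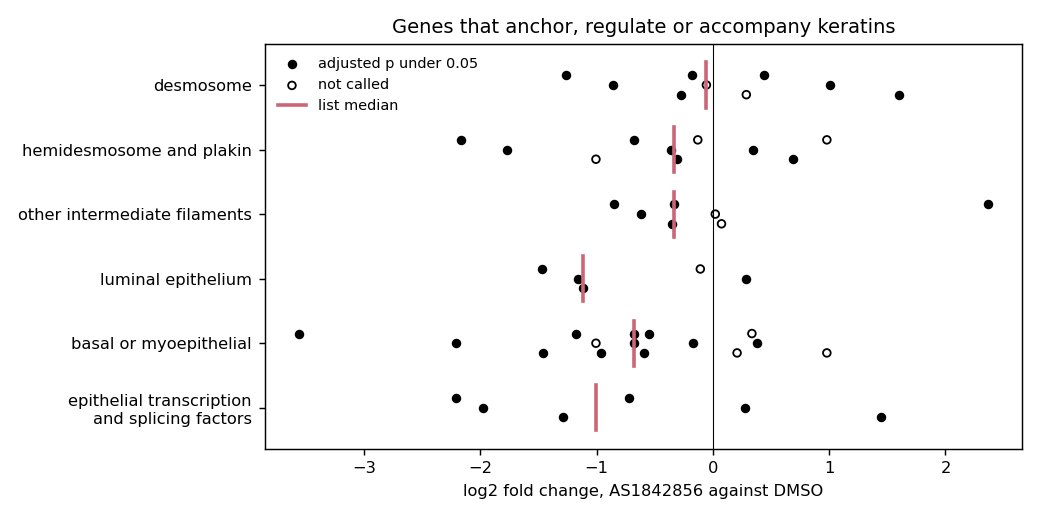
Log2 fold change of each tested gene in 6 lists, filled where the adjusted p was under 0.05 and open where it was not, with a bar at the list median. The medians lie between -1.11 for the luminal genes and -0.06 for the desmosome genes, and every list has called genes on both sides of 0. CLDN7 and TP63 are shown though their DMSO libraries alone carried them past the filter.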

How the data were processed

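RNA-Seq reads of 6 libraries were mapped by the authors with STAR. Per the labels, the processing notes also name CASAVA and Bowtie 0.12.2 and the build GRCh38. The counting tool, the annotation and the use of strand are not given in the sources used here. The deposited counts per gene are not normalized, and the deposited FPKM divide them by gene length and library size. All 58735 gene identifiers were found in GENCODE release 29 (GRCh38), which gave symbols, positions and lengths. Promoter sequences were taken from RefSeq (GRCh38.p14).

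The count test was edgeR 4.0.16 (R 4.3.3), with filterByExpr (minimum count 10, minimum total 15), TMM scaling (factors 0.995 to 1.01), glmQLFit with robust estimation and glmQLFTest without a block. P-values were adjusted over all 14338 genes tested (Benjamini-Hochberg), and genes under 0.05 were called. The SE was the log2 fold change divided by the square root of F. The common biological coefficient of variation was 0.0374. Replicates of a group differed by more than sampling noise (chi-square per degree of freedom 2.32 to 3.12). Alternatives used DESeq2 1.42.0 and limma 3.58.1. The tests were first run on simulated counts.

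The keratin genes and gene lists were chosen with earlier results of these data known. The lists were written from general knowledge. Of each list, up to 2 called genes with the largest rise and up to 2 with the largest fall were named, at a mean of at least 1 CPM. For the 2 called keratins with the largest change, the 3 genes nearest in pattern were named. Results of 1 further gene of the lists and some sequences are not reported here.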

Additional observations from a re-analysis of the deposited data

How the results depend on the processing

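The direction and the call of each of the 8 keratin genes tested were the same in all 122 combinations of gene and alternative setting that gave a value. Of these, 14 were of KRT17, which passed the main filter through its AS1842856 libraries alone. Its repeated call is therefore not counted as support. The alternatives were DESeq2, other scalings, other filters, limma on deposited FPKM, summed copies, the replicate block and each library left out in turn. KRT5 and KRT14 had an adjusted p only where no filter was used (KRT14 not in limma, as its FPKM were not used here), and were not called. The number of keratins called was 7, and 6 with a mean of at least 50 counts or with limma on FPKM of at least 0.5, since KRT17 was then not tested. With each library left out it was 7 throughout, KRT17 included. The number of genes called was 8029, between 6523 and 8030 under alternatives that kept all libraries and between 7427 and 7678 with each library left out.

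The log2 fold change of KRT17 ran from 2.52 to 3.80 with each library left out, and it was 0.40 on the log2(FPKM + 1) scale, which shrinks changes of low genes. The difference in the log2 ratio of KRT18 to KRT8 was 0.0081 and changed sign to -1.33 with pseudogene counts added, 758 of them on KRT8P12. It ran from -0.095 to 0.064 with each library left out. Correlations of same-letter deviations lay between -0.012 and 0.042, and those of unlike letters between -0.028 and 0.030. No pairing by letter was visible in these values, which cannot settle whether the libraries were paired by design. With the replicate block, 7862 genes and 7 keratins, KRT17 among them, were called. Principal transcript lengths were chosen as an alternative after seeing the data. KRT17, KRT5 and KRT14 are limited by depth.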
